A study of Mus musculus with 6 samples.

Results

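Proteasome transcripts were followed in 4T1, a murine mammary carcinoma line, under BRQ. The genes were taken as the genes whose symbol begins with Psm, a letter from a to g and a digit, without the interferon-inducible catalytic subunits Psmb8 and Psmb9, which gave 49 of the 18057 genes in the table. RNA sequencing libraries came from 3 samples of 4T1 cells given BRQ and 3 given DMSO, the solvent. According to its title, the series concerns inhibition of DHODH, an enzyme of de novo pyrimidine synthesis, while neither dose nor duration is given in the labels used here. All 6 titles also carry the letters DHO, which are not explained, so anything they stand for was shared by both groups. Nothing in the labels says that the libraries of a group came from separate cultures, so the p-values measure the spread between these samples, which may be technical.

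The proteasome is the protease that degrades ubiquitin-tagged proteins. Its 20S core is a stack of alpha rings, which gate the entry, and beta rings, which hold the catalytic threonines. The 19S particle that caps it has a base, with a ring of AAA ATPases that unfold the substrate, and a lid, which removes ubiquitin. Dedicated chaperones assemble both particles, and alternative caps such as PA28 and PA200 can replace the 19S. In mammalian cells NFE2L1 raises transcription of most subunit genes together when proteasome activity is short.

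Of the 49 genes, 47 encode subunits, caps, an inhibitor or assembly chaperones. The other 2, Psmc3ip and Psme3ip1, match by symbol only: Psmc3ip encodes HOP2, a recombination factor, and Psme3ip1 a protein that binds PA28 gamma. Psma8, the testis alpha subunit, was listed at 0 in every library. Psmb11, the thymus beta subunit, was above 0 only in BRQ replicate 3 (0.0274 FPKM). The remaining 47 genes, 45 of them proteasome genes proper, passed a mean of at least 1 FPKM and were tested. FPKM, reads scaled to the length of the gene model and to the library's depth, allow levels to be compared between genes. Each of the 47 tested genes rested on 303 to 23554 recovered reads per library.

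RefSeq promoter windows, from 250 bases before to 50 after the start of a gene in build GRCm38.p6, were found for 41 of the 49 genes, in 45 windows. The text CCGGAAG, the core bound by ETS factors, was searched on both strands and stood in 17 of these windows (37.8%), against 18.8% of the 10911 windows of tested genes and 8.86% of all 32851 windows. The core of the antioxidant response element, TGACNNNGC, which NFE2L1 also recognises, stood in 6 windows (13.3%), against 14.5% of the windows of tested genes and 12.4% of all. CCAAT was in 33.3% of the members' windows, against 38.2% for tested genes and 37.4% for all windows. A match of letters is not evidence of binding. The 6 windows printed here belong to the subunits with the largest rises of the ATPase ring and the lid (Psmc5 and Psmd13), the constitutive catalytic subunits that rose (Psmb6 and Psmb5), the ATPase that fell (Psmc6) and the chaperone that fell most (Psmg1). Capitals mark TGACNNNGC and CCGGAAG on either strand, and no such match overlaps another in these windows.
Psmc5 (chr11:106255935-106256234, plus strand): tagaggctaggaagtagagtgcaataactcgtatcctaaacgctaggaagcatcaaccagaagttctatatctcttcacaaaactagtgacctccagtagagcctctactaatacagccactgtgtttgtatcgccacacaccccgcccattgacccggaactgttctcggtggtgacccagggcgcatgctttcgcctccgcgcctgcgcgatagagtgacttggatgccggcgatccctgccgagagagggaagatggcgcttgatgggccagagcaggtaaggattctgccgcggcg
Psmd13 (chr7:140882144-140882443, plus strand): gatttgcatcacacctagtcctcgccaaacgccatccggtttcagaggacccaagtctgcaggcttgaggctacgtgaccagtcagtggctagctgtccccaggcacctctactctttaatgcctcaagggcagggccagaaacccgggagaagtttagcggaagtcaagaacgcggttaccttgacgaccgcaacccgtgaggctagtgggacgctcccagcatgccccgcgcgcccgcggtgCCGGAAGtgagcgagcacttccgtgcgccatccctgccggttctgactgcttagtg
Psmb6 (chr11:70525107-70525406, plus strand): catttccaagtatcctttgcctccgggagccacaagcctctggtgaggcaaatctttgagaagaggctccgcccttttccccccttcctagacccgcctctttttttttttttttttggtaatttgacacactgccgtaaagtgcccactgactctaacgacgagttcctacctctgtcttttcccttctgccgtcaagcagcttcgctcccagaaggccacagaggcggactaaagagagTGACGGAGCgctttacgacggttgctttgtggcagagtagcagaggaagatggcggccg
Psmb5 (chr14:54617946-54618245, minus strand): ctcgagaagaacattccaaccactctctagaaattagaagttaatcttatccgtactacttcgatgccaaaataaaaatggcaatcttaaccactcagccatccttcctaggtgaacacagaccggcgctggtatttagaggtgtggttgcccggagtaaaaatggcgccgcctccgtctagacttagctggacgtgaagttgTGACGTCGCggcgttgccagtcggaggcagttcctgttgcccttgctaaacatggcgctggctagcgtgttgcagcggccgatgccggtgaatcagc
Psmc6 (chr14:45329574-45329873, plus strand): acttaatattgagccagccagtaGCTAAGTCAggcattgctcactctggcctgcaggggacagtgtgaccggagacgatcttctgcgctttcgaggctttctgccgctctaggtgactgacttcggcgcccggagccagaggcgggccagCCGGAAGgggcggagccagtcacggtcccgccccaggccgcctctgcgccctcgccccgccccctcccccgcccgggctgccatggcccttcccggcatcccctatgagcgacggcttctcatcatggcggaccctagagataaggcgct
Psmg1 (chr16:95990911-95991210, minus strand): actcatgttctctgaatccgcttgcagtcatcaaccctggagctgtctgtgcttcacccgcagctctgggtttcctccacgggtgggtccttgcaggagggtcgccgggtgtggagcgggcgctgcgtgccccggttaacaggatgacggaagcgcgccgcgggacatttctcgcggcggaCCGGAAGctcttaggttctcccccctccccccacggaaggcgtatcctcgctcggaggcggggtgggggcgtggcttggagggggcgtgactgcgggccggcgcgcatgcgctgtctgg
Psmb6, Psmb5 and Psmc6 hold the antioxidant core, Psmd13, Psmc6 and Psmg1 hold the ETS core, and Psmc5 holds neither. Both cores occurred above genes that were higher and above genes that were lower under BRQ, in windows that were picked by direction. Among members with a window, the ETS core was found for 10 of 28 called higher and 4 of 9 called lower, and the antioxidant core for 4 of 28 and 2 of 9.

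The tests stood against a wide background of change. Of 10552 genes tested with limma at a Benjamini-Hochberg adjusted p of 0.05, 82.4% were called, 48.7% higher and 33.7% lower under BRQ. The median log2 fold change of all tested genes was 0.12, on the log2(FPKM + 1) scale used for every log2 fold change here. Reads recovered from the FPKM came to 30942871 to 34053453 per library. Markers of the epithelial line were present: Epcam had 80.4 to 83.0 FPKM under BRQ and 75.6 to 80.03 under DMSO, and Krt8 had 397 to 416 and 602 to 619. Claudin 7 was near 0. Of the 12 listed epithelial markers 11 were tested, and 4 were called higher and 7 lower. The 12 summed to 1671, 1673 and 1630 FPKM under BRQ, against 2062 to 2113 under DMSO. Transcripts listed as markers of other cells differed between BRQ libraries. The 20 macrophage markers summed to 73.4, 146 and 141 FPKM in BRQ replicates 1, 2 and 3, against 37.9 to 40.7 under DMSO. Only 6 of them passed the filter, which a low marker could pass through high BRQ values alone. All 6 were called higher, which that filter favoured, and the groups overlapped for 4 of them. Cd68 had 50.2, 61.2 and 53.3 FPKM under BRQ, against 18.7 to 23.5 under DMSO, and Lyz2 had 3.56, 35.4 and 36.4, against 4.44 to 5.38. Cd68 was thus higher in every BRQ library and Lyz2 only in BRQ replicates 2 and 3. Adgre1 stayed at 0.235 FPKM or less and Ptprc at 0.385 or less. The 20 hepatocyte markers summed to 26.5, 2.12 and 1.21 FPKM in the same BRQ libraries and to 27.5 to 30.4 under DMSO. In bulk RNA a change in the number of cells of a type and in the RNA per cell cannot be told apart. Whether the 4T1 cells themselves or other cells made these transcripts was not tested.

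Most proteasome genes were modestly higher under BRQ, while some were lower, in several subcomplexes only 1 gene. Of the 47 tested, 32 were called higher, 11 lower and 4 neither, which is 91.5% called, 68.1% higher and 23.4% lower. Of all tested genes 82.4% were called, 48.7% higher and 33.7% lower, so falls were a smaller share among the members. Their median log2 fold change was 0.27, which lay 0.15 above that of all genes, and 31 of the 47 lay above the median of all genes. The 3 BRQ values lay wholly above the DMSO values for 31 genes and wholly below for 11, and overlapped for 5, where 83.7% of all tested genes did not overlap (49.0% above, 34.8% below). Large changes were no more frequent than among all genes. Of the 47 members 3 rose at least 2-fold (log2 fold change of at least 1) and none fell so far, against 7.13% and 2.87% of all genes. The 3 were Psmc5, Psmd9 and Psmc3ip, the last matched by symbol only. The median size of change, whatever its sign, was 0.36 for the members and 0.41 for all genes. The surplus of rises was smaller under other scalings. The FPKM of a library summed to 413739 to 420687 under BRQ and 374509 to 380140 under DMSO. With libraries brought to equal totals or scaled by median ratios, 26 members were higher and 14 lower. Of all genes 40.7% were then higher and 42.1% lower with equal totals (82.7% called), and 41.6% and 41.2% with median ratios (82.8% called). After quantile normalization 24 members were higher and 16 lower, against 40.3% and 42.0% of all genes (82.3% called). The count-based limma-voom test on recovered reads called 32 members higher and 10 lower, against 49.0% and 34.2% of all genes (83.2% called). With BRQ replicate 1, whose other-cell markers differed from those of the other 2 BRQ libraries, as the only BRQ library, 30 members were higher and 11 lower, against 43.4% and 30.1% of all genes (73.5% called). In that fit the DMSO libraries alone supply the spread, and the single BRQ library is assumed to vary like them. Without BRQ replicate 1, 30 members were higher and 10 lower, against 47.4% and 32.6% of all genes (80% called). The part of other cells in the members' changes was not tested.

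**Figure D1:**
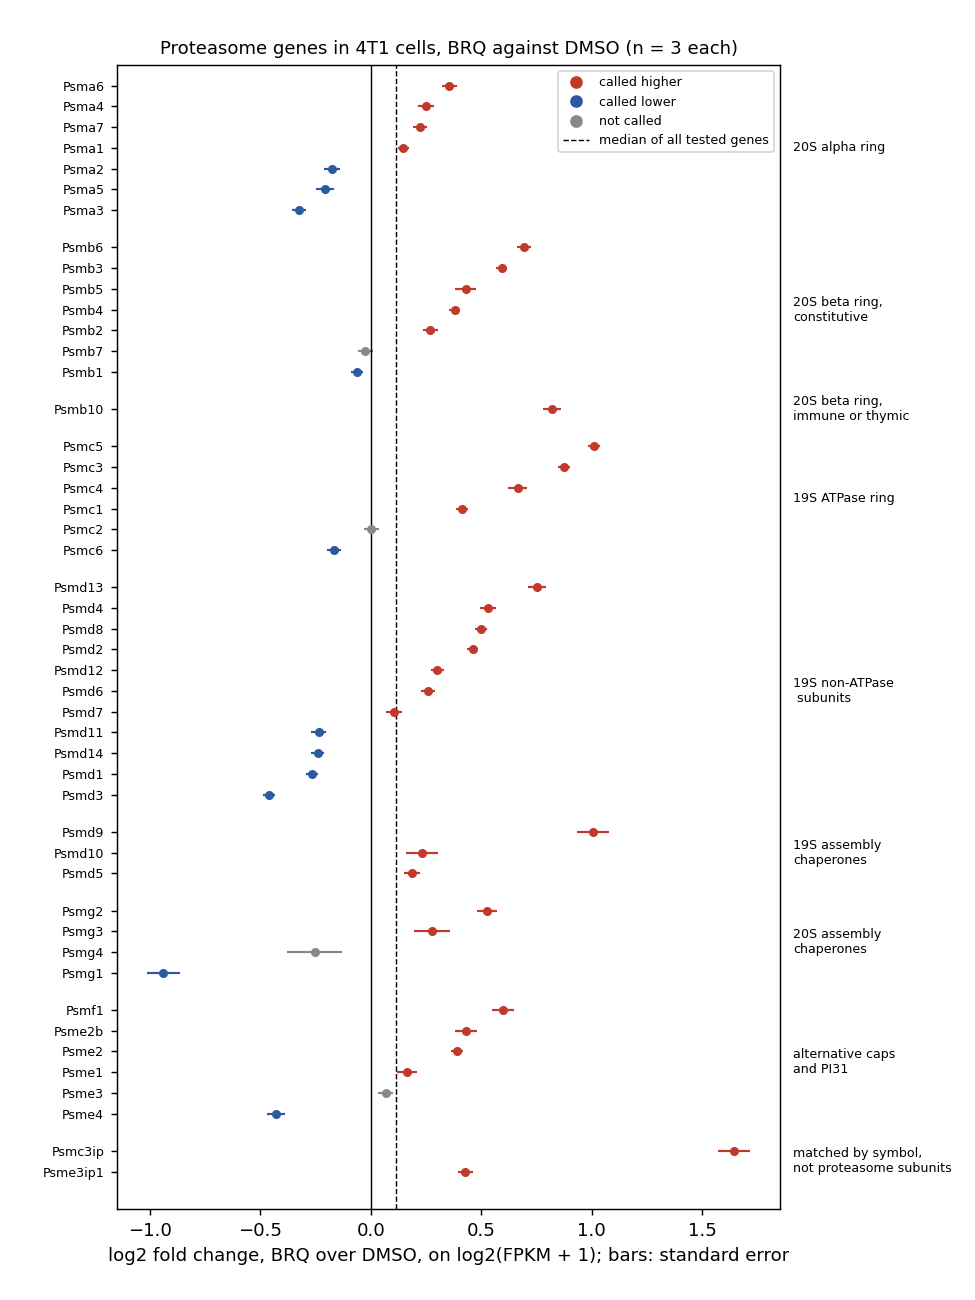
Log2 fold change of each of the 47 tested genes, BRQ over DMSO (x axis, log2(FPKM + 1) scale, bars are standard errors, n = 3 each), grouped by subcomplex. Red genes were called higher, blue lower and grey neither, and the dashed line is the median of all tested genes (0.12); Psmc5 (1.01) and Psmd9 (1.01) lie farthest right among proteasome genes and Psmg1 (-0.94) farthest left.

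The levels of the 31 tested subunits of the 26S particle among the members were summed. Subunits without a Psm symbol, such as Adrm1, are not in the sum, so it does not cover the whole complex. The sum was 4394, 4424 and 4326 FPKM under BRQ, against 3579, 3528 and 3675 under DMSO. All BRQ sums were above all DMSO sums, by 1.22-fold on average, and by 1.11-fold with median-ratio scaling and 1.10-fold with equal totals. The 19S subunits rose more in sum (1.27-fold) than the 20S subunits (1.17-fold). The sum of 19S over that of 20S, a ratio in which library scaling cancels, was 1.01, 0.986 and 0.995 under BRQ, against 0.934, 0.913 and 0.910 under DMSO. Although the subunits enter the particle in equal numbers, their transcripts were not at equal levels. Psmb4 had the highest level of the 26S subunits in both groups (316 ± 2.59 FPKM under BRQ and 243 ± 7.46 under DMSO, SD, n = 3 each), and Psmd11 the lowest (44.0 ± 1.62 and 52.0 ± 0.12). The highest subunit thus stood 7.18-fold above the lowest under BRQ and 4.67-fold under DMSO. The order of members by level was otherwise similar in both groups (Spearman's rho 0.92 across the 47 genes, which share libraries).

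The alpha ring, which opens and closes the channel, split: of 7 tested subunits 4 were higher and 3 lower, and its median of 0.15 lay 0.03 above that of all genes. Counts of this and the following subcomplexes stand beside 48.7% of all tested genes called higher and 33.7% lower. Psma6 had the largest rise. It measured 257, 261 and 256 FPKM under BRQ, against 202, 191 and 212 under DMSO (log2 fold change 0.36, SE 0.0348, limma adjusted p = 5.11e-06). Every BRQ value was above every DMSO value. Psma3 had the largest fall, with 48.2, 47.8 and 48.1 FPKM under BRQ, against 61.9, 58.1 and 61.3 under DMSO (-0.32, SE 0.0329, adjusted p = 6.75e-06). Its groups were separate too. Psma5 also fell, to 90.2, 88.2 and 82.4 FPKM under BRQ, against 98.9, 98.1 and 105 under DMSO (-0.21, adjusted p = 0.000682). Psma2 fell to 92.1, 101.5 and 96.7 FPKM under BRQ, against 107, 109 and 112 under DMSO (-0.18, adjusted p = 0.00143). Neither gene had overlapping groups. Psma1, Psma4 and Psma7 were higher by 0.15 to 0.25, and the rises of Psma1 (with the 3 other scalings) and Psma7 (with quantile normalization) were lost when libraries were scaled otherwise.

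The constitutive beta ring was mostly higher: 5 of 7 subunits rose, 1 fell and 1 did not change detectably, with a median of 0.38. Its catalytic members did not move alike. Psmb6, which carries the caspase-like activity, measured 121, 128 and 126 FPKM under BRQ, against 77.2, 74.6 and 78.6 under DMSO (log2 fold change 0.69, SE 0.0316, limma adjusted p = 2.17e-08). This was the largest rise of the ring, and the groups were far apart. Psmb5, the chymotrypsin-like subunit and the main target of bortezomib, measured 106, 105 and 104 FPKM under BRQ, against 74.7, 74.0 and 84.5 under DMSO (0.43, SE 0.0466, adjusted p = 1.14e-05). Its groups did not overlap, and DMSO replicate 3 was the nearest to the BRQ values. Psmb7, the trypsin-like subunit, measured 150, 158 and 147 FPKM under BRQ, against 149, 158 and 156 under DMSO. The groups overlapped (-0.03, SE 0.0342, adjusted p = 0.497), and after the 3 other scalings it was called lower (-0.15, -0.17 and -0.20). The structural subunits Psmb2, Psmb3 and Psmb4 rose by 0.27 to 0.59. Psmb1 measured 182, 186 and 181 FPKM under BRQ, against 188, 189 and 197 under DMSO. All BRQ values were lower, but the call was marginal (-0.06, adjusted p = 0.0499) and was lost in 9 of the 15 alternatives. The limma adjusted p was 0.0604 to 0.173 without BRQ replicate 1, BRQ replicate 3, DMSO replicate 2 or DMSO replicate 3. With median-ratio scaling, equal library totals and quantile normalization it stayed called lower, with a larger fall (-0.19, -0.21 and -0.24).

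Psmb10 encodes the interferon-inducible counterpart of Psmb7 and was the only immune or thymic beta subunit tested among the members. It measured 105, 100.97 and 101.4 FPKM under BRQ, against 55.1, 56.5 and 61.2 under DMSO (log2 fold change 0.82, SE 0.0401, limma adjusted p = 3.27e-08), a 1.78-fold rise. The groups did not overlap. The inducible counterparts of Psmb6 and Psmb5 were higher as well: Psmb9 measured 73.6, 76.4 and 71.9 FPKM under BRQ, against 40.0, 46.1 and 45.9 under DMSO (0.74), and Psmb8 179, 187 and 176, against 150, 156 and 153 (0.24). No group overlapped in either gene, but the call of Psmb8 was lost with quantile normalization (0.045, limma adjusted p = 0.124).

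Because a newly built core takes either the constitutive or the inducible subunit at each catalytic site, the inducible share of each pair's FPKM was computed in every library, where scaling cancels. At the site of Psmb7 and Psmb10 the inducible share was 41.3%, 39.0% and 40.8% under BRQ, against 27.0%, 26.3% and 28.2% under DMSO, a difference of 13.2 percentage points. At the site of Psmb5 and Psmb8 it was 62.9%, 64.0% and 62.9% under BRQ, against 66.7%, 67.8% and 64.5% under DMSO, a difference of -3.07 points. At the site of Psmb6 and Psmb9 it was 37.8%, 37.4% and 36.3% under BRQ, against 34.1%, 38.2% and 36.8% under DMSO. The groups were separate at the first 2 sites and overlapped at the third. Exact two-sided permutation tests gave p = 0.1, 0.1 and 0.7, or 0.15, 0.15 and 0.7 adjusted over the 3 sites, and 0.1 is the smallest value that 3 against 3 samples allow.

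**Figure D2:**
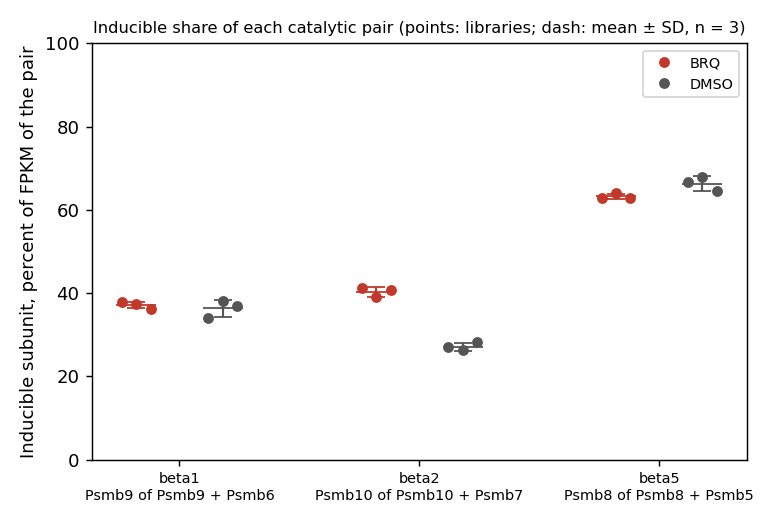
Inducible subunit as a percent of the summed FPKM of each catalytic pair (y axis), by site (x axis), with BRQ in red left of DMSO in grey; points are libraries and dashes with bars are means ± SD (n = 3). The Psmb10 share averaged 40.4% under BRQ and 27.2% under DMSO, while the means were 37.2% and 36.4% at the Psmb9 site and 63.3% and 66.3% at the Psmb8 site.

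The ATPase ring of the 19S base had the largest rises of the 26S subunits, with 4 of 6 genes higher, 1 lower and 1 without a detectable change (median 0.54). Psmc5 measured 160, 160 and 163 FPKM under BRQ, against 80.3, 77.5 and 79.9 under DMSO. That is a 2.03-fold rise (log2 fold change 1.01, SE 0.0265, limma adjusted p = 9.55e-10), with values close together within each group. Psmc3 measured 221, 230 and 222 FPKM under BRQ, against 124, 119 and 122 under DMSO (0.87, adjusted p = 2.77e-09). Psmc4 and Psmc1 rose by 0.67 and 0.41. Psmc6 went the other way, with 91.5, 90.8 and 93.5 FPKM under BRQ, against 100.5, 102 and 107 under DMSO (-0.17, SE 0.0317, adjusted p = 0.000671). Its BRQ values were all below its DMSO values. Psmc2 measured 102.7, 99.0 and 98.7 FPKM under BRQ, against 102.2, 96.1 and 102 under DMSO (0.003, adjusted p = 0.943), overlapping, and was called lower with the 3 other scalings.

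The ATPases join the ring as fixed dimers, so their transcripts were compared within these pairs. Psmc3 over its partner Psmc6 was 2.42, 2.53 and 2.37 under BRQ, against 1.24, 1.16 and 1.14 under DMSO. Psmc1 over Psmc2 was 1.76, 1.79 and 1.78 under BRQ, against 1.34, 1.37 and 1.30 under DMSO. Psmc5 over Psmc4 was 1.48, 1.49 and 1.54 under BRQ, against 1.14, 1.24 and 1.16 under DMSO. Within each of the 3 pairs the transcripts were farther apart under BRQ, and the groups did not overlap. These ratios belong to 7 known pairs that were compared. The ratio was farther from 1 under BRQ in 5 of them and closer to 1 in the other 2, Psmg3 over Psmg4 and Psme2 over Psme1. Each had an exact two-sided permutation p of 0.1, also after adjustment over the 7, which is the smallest possible here. The pairs were chosen after their values were seen, so no conclusion is drawn from these p-values. Separation was also common, as 83.7% of all tested genes had groups that did not overlap, and other pairs of genes were not compared.

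**Figure D3:**
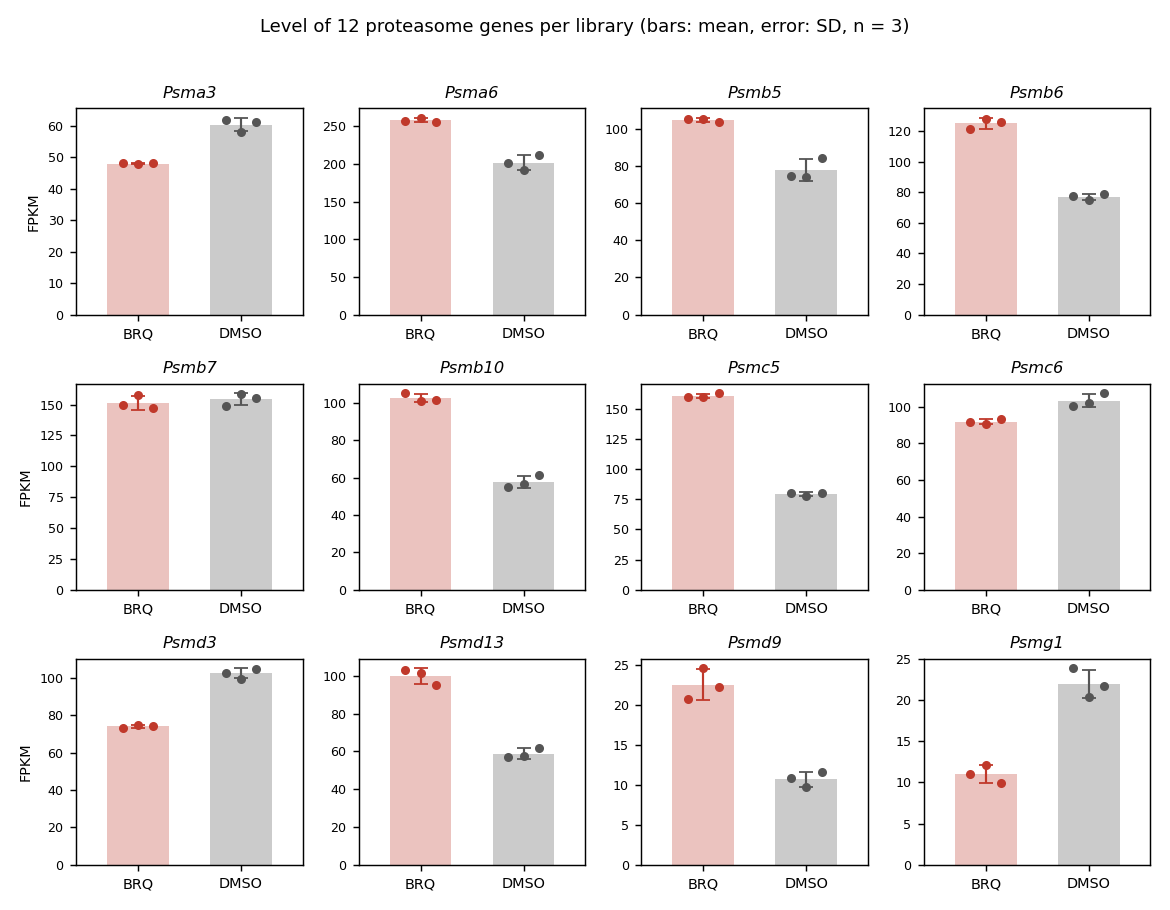
FPKM (y axis, from 0) of 12 proteasome genes in each library, BRQ left of DMSO; bars are means, error bars SD (n = 3) and points libraries. Groups are separate in 11 of the 12 panels and overlap for Psmb7 (150, 158 and 147 against 149, 158 and 156), and Psma3, Psmc6, Psmd3 and Psmg1 are the separate panels in which BRQ is lower.

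Among the 11 other 19S subunits with a Psm symbol 7 were higher and 4 lower (median 0.26). In the base, both large scaffolds were found on opposite sides. Psmd2, which binds shuttle factors and ubiquitin-like domains, measured 207, 201 and 201 FPKM under BRQ, against 149, 145 and 148 under DMSO (log2 fold change 0.46, SE 0.0252, limma adjusted p = 6.9e-08). Psmd1 measured 81.0, 79.4 and 79.9 FPKM under BRQ, against 96.7, 96.9 and 96.1 under DMSO (-0.27, SE 0.0254, adjusted p = 4.23e-06). Neither gene had overlapping groups. Psmd4, a ubiquitin receptor, measured 229, 228 and 216 FPKM under BRQ, against 157, 148 and 159 under DMSO (0.53, adjusted p = 2.85e-07), again with separate groups.

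Of the 8 lid subunits with a Psm symbol 5 were higher and 3 lower, where 48.7% of all tested genes were higher and 33.7% lower. Psmd13 rose most, to 102.8, 101.5 and 95.4 FPKM under BRQ, against 56.9, 57.8 and 61.9 under DMSO (log2 fold change 0.75, SE 0.0410, limma adjusted p = 6.77e-08). Psmd3 fell most, to 73.2, 74.7 and 74.4 FPKM under BRQ, against 102.7, 99.7 and 105 under DMSO (-0.46, SE 0.0289, adjusted p = 1.85e-07). Both genes had groups well apart. Psmd14, the metalloprotease that cuts ubiquitin chains off substrates, measured 74.3, 76.5 and 76.0 FPKM under BRQ, against 88.4, 87.7 and 92.6 under DMSO (-0.24, adjusted p = 3.78e-05). Psmd11, a lid scaffold, measured 45.8, 42.6 and 43.7 FPKM under BRQ, against 52.0, 52.1 and 51.9 under DMSO (-0.24, adjusted p = 9.56e-05). All BRQ values of these 2 genes were below their DMSO values. Psmd7, which dimerises with Psmd14, was called slightly higher (0.10, adjusted p = 0.0204), but not with median-ratio scaling (-0.023) or equal library totals (-0.038), and it was called lower after quantile normalization (-0.078). The call was also lost without BRQ replicate 1, DMSO replicate 1 or DMSO replicate 2 (0.084 to 0.088, limma adjusted p = 0.0692 to 0.0764). The ratio of Psmd7 over Psmd14 was 1.67, 1.56 and 1.57 under BRQ, against 1.23, 1.25 and 1.28 under DMSO. Psmd6, Psmd8 and Psmd12 rose by 0.26 to 0.50, the call of Psmd6 being lost with quantile normalization (0.022, limma adjusted p = 0.479).

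The chaperones that build the 19S base were all called higher, Psmd9 by far the most. Psmd9, which escorts the pair of Psmc3 and Psmc6, measured 20.8, 24.6 and 22.3 FPKM under BRQ, against 10.9, 9.71 and 11.6 under DMSO (log2 fold change 1.01, SE 0.0724, limma adjusted p = 4.98e-07). Its 2.10-fold rise was the largest ratio among the 45 proteasome genes proper. Psmd5 measured 59.2, 62.8 and 58.5 FPKM under BRQ, against 52.8, 51.8 and 53.6 under DMSO (0.19, adjusted p = 0.000582), without overlap, but its call was lost with the 3 other scalings. Psmd10, which encodes gankyrin, was called higher (0.23, adjusted p = 0.0138), although 1 of its BRQ values lay within the DMSO range, and that call was lost with those scalings as well. It was also lost without BRQ replicate 1 (0.19, limma adjusted p = 0.0514) or DMSO replicate 1 (0.17, limma adjusted p = 0.0537).

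Of the 4 chaperones of the 20S core 2 were higher, 1 lower and 1 neither, where 48.7% of all tested genes were higher and 33.7% lower. Psmg1 and Psmg2 encode PAC1 and PAC2, which act as a heterodimer on the forming alpha ring. Psmg1 measured 10.99, 12.1 and 9.88 FPKM under BRQ, against 23.8, 20.4 and 21.6 under DMSO, the largest fall of any member (log2 fold change -0.94, SE 0.0738, limma adjusted p = 9.65e-07). Psmg2 measured 31.9, 31.0 and 31.3 FPKM under BRQ, against 22.9, 20.3 and 21.4 under DMSO (0.53, SE 0.0456, adjusted p = 2.02e-06). Both genes had separate groups in opposite directions. Psmg2 over Psmg1 was therefore 2.91, 2.57 and 3.17 under BRQ, against 0.961, 0.995 and 0.988 under DMSO, a 2.93-fold difference and the largest of the 7 pairs. In the other dimer, Psmg3 over Psmg4 was 1.13, 0.903 and 1.26 under BRQ, against 0.757, 0.814 and 0.655 under DMSO, closer to 1 under BRQ on average. Psmg3 measured 18.1, 22.4 and 23.3 FPKM under BRQ, against 17.3, 18.0 and 16.5 under DMSO. It was called higher (0.28, adjusted p = 0.00932), but the call was lost with the 3 other scalings and with no filter. With BRQ replicate 1 as the only BRQ library its log2 fold change was 0.065. Psmg4 measured 16.0, 24.8 and 18.5 FPKM under BRQ, against 22.9, 22.1 and 25.2 under DMSO (-0.25, adjusted p = 0.0825), with overlap and the widest spread between BRQ libraries, relative to the mean, of any tested member. Without BRQ replicate 2 it was called lower (-0.42, limma adjusted p = 0.000648), as it was with the 3 other scalings. It had 303 to 476 recovered reads per library, fewer than other tested members at their lowest. Pomp, the chaperone that matures the beta ring and has no Psm symbol, rose to 168, 170.2 and 170.3 FPKM under BRQ, against 99.5, 111 and 108 under DMSO (0.67, adjusted p = 9.05e-08).

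Of the genes for alternative caps and the inhibitor PI31, 4 of 6 were higher and 1 lower. PA28 is made of the products of Psme1 and Psme2. Psme2 measured 154, 158 and 152 FPKM under BRQ, against 117, 120.3 and 117 under DMSO (log2 fold change 0.39, SE 0.0271, limma adjusted p = 3.92e-07). Psme1 measured 161, 169.9 and 148 FPKM under BRQ, against 145, 139 and 143 under DMSO (0.16, SE 0.0452, adjusted p = 0.00707). Neither gene's groups overlapped, but Psme1 was near 0 and not called with the 3 other scalings. Psme2 over Psme1 was 0.957, 0.933 and 1.03 under BRQ, against 0.806, 0.864 and 0.821 under DMSO, closer to 1 under BRQ. Psme2b, a near-identical copy of Psme2 with which reads may be shared, rose by 0.43, and the values of both are uncertain to that extent. Psme3, which encodes the nuclear cap PA28 gamma, measured 39.1, 37.8 and 39.3 FPKM under BRQ, against 37.9, 35.8 and 37.2 under DMSO. The groups overlapped and it was not called (0.07, adjusted p = 0.0994). With quantile normalization it was called lower (-0.12, limma adjusted p = 0.00956), and it was negative but not called with median-ratio scaling (-0.058) and equal library totals (-0.074). Psme4, which encodes PA200, measured 14.7, 14.8 and 14.7 FPKM under BRQ, against 20.8, 20.3 and 19.6 under DMSO (-0.43, SE 0.0391, adjusted p = 2.93e-06). Psmf1, which encodes PI31, measured 17.6, 18.3 and 17.7 FPKM under BRQ, against 10.7, 12.2 and 11.5 under DMSO (0.60, SE 0.0519, adjusted p = 2.03e-06). Both of these genes had separate groups, in opposite directions.

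The 2 genes matched by symbol only were higher. Psmc3ip had the largest change of all 47, at 18.6, 17.5 and 17.4 FPKM under BRQ, against 5.77, 4.71 and 4.63 under DMSO (log2 fold change 1.65, SE 0.0723, limma adjusted p = 1.76e-08). Psme3ip1 measured 37.6, 37.6 and 38.4 FPKM under BRQ, against 27.9, 28.6 and 27.2 under DMSO (0.43, adjusted p = 1.05e-06). Both had separate groups. Without these genes 30 of 45 were higher and 11 lower, with a median of 0.26.

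The authors' gene-model lengths could be read from the FPKM steps, up to a common divisor per gene, so some may be too short. Length was set beside the changes because fold changes of all genes ran with it. Across the 10552 tested genes Spearman's rho between log2 fold change and length was -0.42, whereas across the 47 members it was -0.04 and across the 31 subunits of the 26S particle -0.28. These are descriptions over genes that share libraries. Members were short, with a median of 1436 bases against 3409 for all tested genes. Those called higher had a median of 1356 bases and those called lower 1736. The part of length in the members' changes was not tested.

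**Figure D4:**
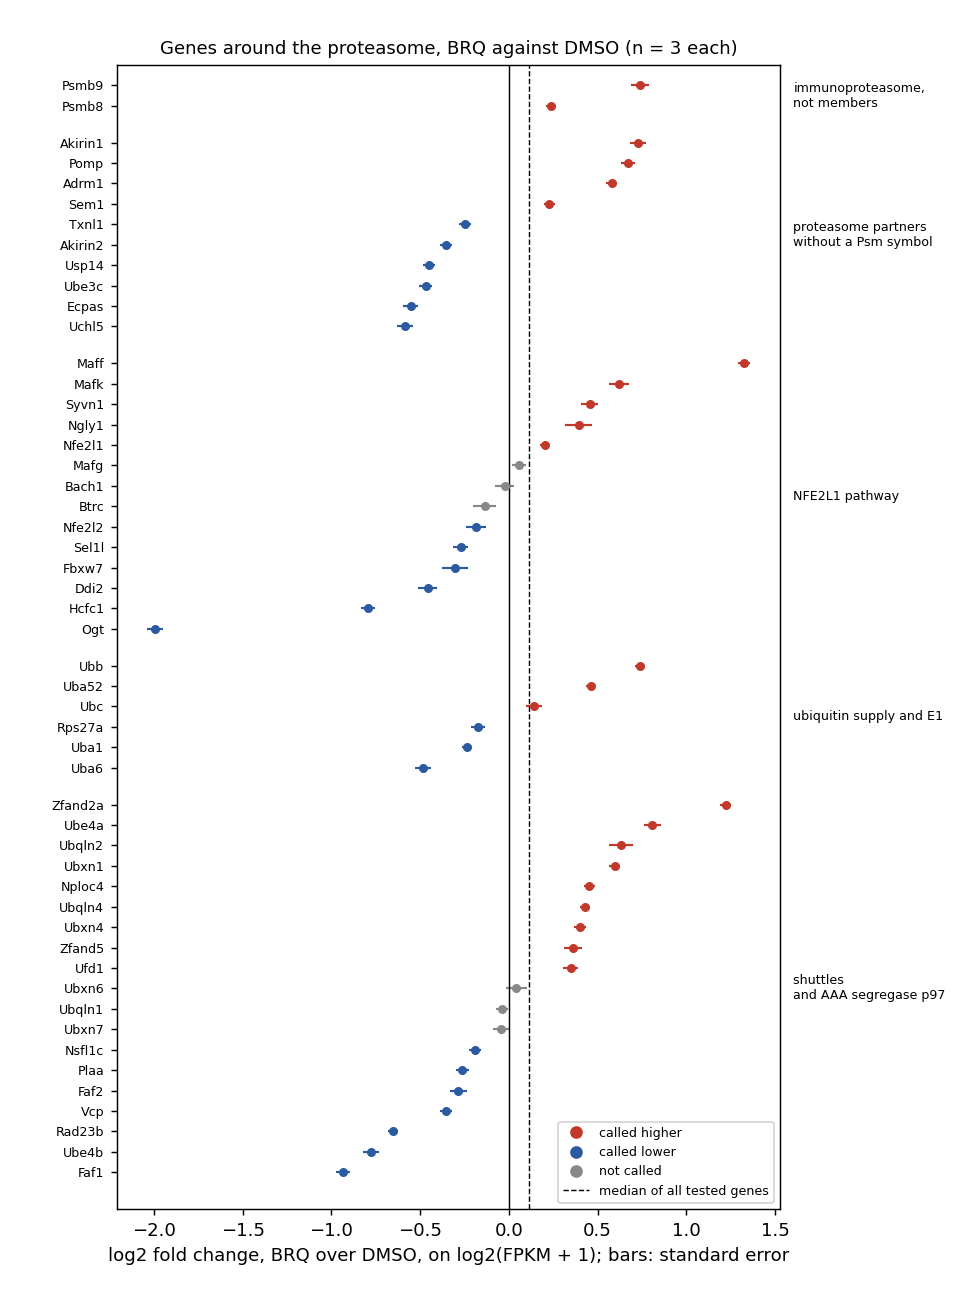
Log2 fold change (x axis, log2(FPKM + 1) scale, bars are standard errors, n = 3 each) of genes around the proteasome that are not among the 49, by group. Red genes were called higher, blue lower and grey neither; Ogt (-1.99) lies farthest left, Maff (1.32) and Zfand2a (1.22) farthest right, and each group has genes on both sides except the pair Psmb8 and Psmb9.

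Genes that work with the proteasome moved in both directions, as did all tested genes, of which 48.7% were called higher and 33.7% lower. Of 10 tested partners and subunits without a Psm symbol, 4 were higher and 6 lower, with a median of -0.30. The 19S subunit Adrm1, a ubiquitin receptor, rose to 102.9, 100.4 and 98.3 FPKM under BRQ, against 68.4, 65.9 and 66.6 under DMSO (log2 fold change 0.58, limma adjusted p = 4.4e-08). Uchl5, the deubiquitinase that Adrm1 recruits, fell to 25.3, 26.8 and 26.9 FPKM under BRQ, against 39.0, 42.3 and 38.6 under DMSO (-0.58, SE 0.0441, adjusted p = 7.11e-07). The groups of this receptor and its enzyme were apart in opposite directions. The other proteasome-bound deubiquitinase gene, Usp14, fell by 0.45, as did Ecpas, the 26S adaptor ECM29, by 0.55, and the ligase gene Ube3c by 0.47. Akirin1 rose most in this group, to 52.9, 54.6 and 57.2 FPKM under BRQ, against 32.8, 31.1 and 34.4 under DMSO (0.73), while its paralogue Akirin2, which brings proteasomes into the nucleus, fell by 0.35.

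The pathway of NFE2L1, which drives proteasome genes, had 5 of 14 genes higher, 6 lower and 3 neither. Of all tested genes 48.7% were higher and 33.7% lower. Nfe2l1 measured 117, 113 and 114 FPKM under BRQ, against 101.2, 99.8 and 97.2 under DMSO (log2 fold change 0.20, SE 0.0277, limma adjusted p = 6.42e-05). Its groups did not overlap, but the call was lost with equal library totals (0.060, limma adjusted p = 0.0873) and quantile normalization (0.030, limma adjusted p = 0.346), and the value was 0.075 with median-ratio scaling. Ddi2, the protease that activates NFE2L1, fell to 4.81, 4.87 and 5.05 FPKM under BRQ, against 7.0, 7.32 and 7.04 under DMSO (-0.46, adjusted p = 1.59e-05). Ngly1, Syvn1 and Mafk of the same list were called higher, by 0.39, 0.46 and 0.62. The small Maf partner gene Maff rose most, to 39.7, 41.0 and 39.8 FPKM under BRQ, against 15.2, 15.6 and 15.5 under DMSO (1.32, adjusted p = 9.32e-10). Ogt, which with Hcfc1 modifies NFE2L1, fell most, to 10.5, 9.68 and 10.6 FPKM under BRQ, against 45.03, 42.6 and 43.9 under DMSO (-1.99), and Hcfc1 fell by 0.79. No group overlapped in Maff, Ddi2 or Ogt. Activity of NFE2L1 was not measured.

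Ubiquitin genes and the activating enzymes gave 3 higher and 3 lower of 6, where 48.7% of all tested genes were higher and 33.7% lower. Ubb, a polyubiquitin gene, rose to 555, 570.3 and 561 FPKM under BRQ, against 328, 332 and 349 under DMSO (log2 fold change 0.74, SE 0.0275, limma adjusted p = 6.47e-09). Its groups were far apart. Of the activating enzyme genes, Uba6 fell most, to 13.9, 13.5 and 14.7 FPKM under BRQ, against 20.6, 19.7 and 19.7 under DMSO (-0.48), and Uba1 fell by 0.24. Of 19 tested genes of shuttle factors and of p97, the segregase that hands over substrates, 9 were higher, 7 lower and 3 neither. These counts stand beside the same shares of all tested genes. Zfand2a, which encodes an arsenite-inducible 19S-binding protein, rose most, to 85.7, 85.3 and 86.5 FPKM under BRQ, against 35.9, 37.5 and 35.3 under DMSO (1.22, adjusted p = 9.32e-10). Faf1, which encodes a p97 cofactor, fell to 15.9, 15.1 and 15.8 FPKM under BRQ, against 31.4, 31.0 and 29.7 under DMSO (-0.93, adjusted p = 1.38e-08). Both genes had separate groups. Vcp, which encodes p97, fell by 0.35.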

How the data were processed

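FPKM for 18057 genes, 1 column per library, were deposited by the authors. The submitters' processing notes name fastp, HTSeq and build GRCm39. Aligner, annotation, strand setting and versions were not stated, so overlapping, antisense, pseudogene and near-identical copies may share reads. A further 8 value columns matched none of the 6 samples and were left aside. Groups and replicate numbers came from the titles. Genes averaging 1 FPKM or more over the libraries were tested on log2(FPKM + 1), two-sided, with limma 3.58.1 in R 4.3.3 (lmFit, eBayes with a trend, no covariates, all 6 libraries), Benjamini-Hochberg adjusted over 10552 genes. n-fold values are ratios of mean FPKM. Whole reads, within 0.02 of a read, were recovered from the FPKM steps for all 63312 tested values, up to a common divisor per gene. A gene whose reads share such a divisor is given too few reads and too short a length. The recovered reads were used for depth, gene-model length and a count-based alternative, limma-voom. The code was tested on simulated data. Genes with values in every library were the catalytic subunits, the largest rise and fall in each subcomplex, members called against the direction of their subcomplex, Psmd2, Psmd4, Psmd14, the Psme caps, and from other lists the largest called changes with Nfe2l1, Pomp, Psmb8 and Psmb9. Adrm1, Ddi2, Psmc2, Psmc3, Psmg3, Psmg4, the 7 dimers, the promoter motifs and the genes named in passing were chosen after their values were seen. Members and lists were chosen with earlier results of these data known. Alternatives were another pseudocount, filters, 3 scalings, blocking on replicate number, leaving out each library in turn, BRQ replicate 1 as the only BRQ library, and limma-voom. RNA was measured, not protein. Promoter sequences are RefSeq's, build GRCm38.p6. Paaf1, Ddi1 and 1 further gene of the shuttle list are not reported here.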

Additional observations from a re-analysis of the deposited data

How the results depend on the processing

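Counts of calls stayed within 1.5 times the reported ones in all 15 alternatives: members called higher ranged from 24 to 32 and lower from 10 to 16. The members' median log2 fold change of 0.27 moved, by more than the spread between BRQ libraries, to 0.14 with median-ratio scaling, 0.13 with equal library totals, 0.088 with quantile normalization and 0.30 with BRQ replicate 1 as the only BRQ library. Leaving out 1 library at a time gave medians of 0.25 to 0.28. The summed 26S FPKM, 1.22-fold as reported, came to 1.11-fold with median-ratio scaling and 1.10-fold with equal totals. The cause of these shifts was not tested. The median of all genes moved as well, so that the members lay 0.15 above it as reported, and 0.14, 0.14 and 0.096 above it with median-ratio scaling, equal totals and quantile normalization (0.25 with no filter). After quantile normalization the sign turned for Psma1 (-0.022), Psmc2 (-0.17, called lower), Psmd5 (-0.051), Psmd7 (-0.078, called lower, the only call that reversed), Psme1 (-0.00013) and Psme3 (-0.12, called lower), and for Psmc2, Psmd7 and Psme3 also with the other 2 scalings. Psmb1, the smallest effect among the called members, was lost in 9 alternatives (limma adjusted p of 0.0502 to 0.173 where each group kept more than 1 library). With the 3 other scalings it stayed called lower (-0.19, -0.21 and -0.24). Libraries with the same replicate number did not deviate together (correlations of 0.004, -0.03 and -0.03 for numbers 1, 2 and 3), and the fit with the replicate number as a block called 32 members higher and 10 lower, with a median of 0.27. Depth was lowest for Psmg4, with 303 recovered reads in 1 library.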
